A study of Mus musculus with 35 samples.

Results

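Fos, Junb, Nr4a1 and Per1 are immediate early genes whose transcription responds to cyclic AMP, and their chromatin was compared here between mouse embryonic fibroblasts treated with and without Forskolin, a drug that raises cyclic AMP. The members were every region of the deposited signal tables and every listed peak that overlapped the 4 gene bodies or the 5 kb on either side of them, in the mm9 build. The gene bodies were Fos at chr12:86814850-86818250 on the plus strand, Junb at chr8:87500600-87502650 on the minus strand, Nr4a1 at chr15:101097200-101105300 on the plus strand and Per1 at chr11:68908800-68922000 on the plus strand. These windows held 6 of 36431 regions of the ATAC-seq table, 6 of 12566 regions of the H3K4me3 table, 1 of 19224 regions of the H3K27me3 table and 480 of 8895103 listed peaks. The files name no genes, so the loci rest on these positions, and genes that define fibroblasts were not checked here.

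The series held 35 samples of primary mouse embryonic fibroblasts (MEFs, a mixed culture from ICR embryos) on day 4: 14 ATAC-seq libraries, which measure accessible DNA, and ChIP-seq of H3K4me3, a mark of active promoters, and of H3K27me3, a mark of Polycomb repression, with inputs. In the names of the treatments, C is CHIR99021 (a GSK3 inhibitor), 6 is the inhibitor of the TGF-beta receptor known as RepSox, F is Forskolin, A is the retinoid AM580 and E is EPZ004777 (an inhibitor of the methyltransferase DOT1L). C6FAE, 6FAE and CFAE contained Forskolin, C6AE and AE did not, and all 5 contained A and E. Basal and Ctr are named without a recipe in the sources used here, and Basal was counted as without Forskolin because its name lists no chemical, while Ctr (control) was kept apart as background in ATAC-seq. C6FAE and C6AE differ, by their names, in Forskolin only. ATAC-seq had 2 libraries per treatment, which the study's methods call biological replicates for the control and C6FAE, and for the others no source says whether they came from separate cultures, so p-values between them may measure technical spread only. ChIP-seq had 1 library per treatment and mark. In addition, 1 library of each mark was called Ctr in its title and in the column of the authors' table while its treatment label read C6FAE, and these entered no comparison.

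Forskolin activates adenylyl cyclase, and the cyclic AMP it makes activates protein kinase A, which phosphorylates the transcription factor CREB. CREB binds the palindrome TGACGTCA or its shorter core TGACG in promoters, and genes such as these are transcribed within minutes of a stimulus and usually fall back within hours. Fos and Junb encode subunits of the transcription factor AP-1. Nr4a1 encodes an orphan nuclear receptor, and Per1 encodes a repressor of the circadian clock.

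The promoters are shown because TGACG, the sequence through which cyclic AMP is known to act, was looked for in each and because an ATAC-seq peak and a H3K4me3 peak were listed at all 4 gene starts. They are the 250 bases before each RefSeq start in GRCm38.p6, matched by gene symbol for all 4 genes, written 5′ to 3′ with TGACG or its complement CGTCA in capitals. No position was moved between this build and mm9.
Fos (chr12:85473640-85473889, plus strand): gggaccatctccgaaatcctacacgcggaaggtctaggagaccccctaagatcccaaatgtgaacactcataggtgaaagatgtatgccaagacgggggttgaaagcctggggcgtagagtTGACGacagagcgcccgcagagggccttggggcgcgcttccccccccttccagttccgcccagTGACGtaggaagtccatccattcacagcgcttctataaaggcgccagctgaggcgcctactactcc
Junb (chr8:84978749-84978998, minus strand): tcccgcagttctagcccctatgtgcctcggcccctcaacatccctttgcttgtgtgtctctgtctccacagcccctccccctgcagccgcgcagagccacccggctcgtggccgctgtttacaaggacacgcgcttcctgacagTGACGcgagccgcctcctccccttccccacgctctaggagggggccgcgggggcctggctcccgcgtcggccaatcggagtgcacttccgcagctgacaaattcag
Nr4a1 (chr15:101266596-101266845, plus strand): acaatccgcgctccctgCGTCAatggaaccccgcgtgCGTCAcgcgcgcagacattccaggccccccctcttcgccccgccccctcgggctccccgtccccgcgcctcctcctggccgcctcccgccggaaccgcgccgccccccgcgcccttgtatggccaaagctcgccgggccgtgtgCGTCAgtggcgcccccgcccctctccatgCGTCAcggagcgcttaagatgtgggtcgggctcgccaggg
Per1 start site 1 (chr11:69098699-69098948, plus strand): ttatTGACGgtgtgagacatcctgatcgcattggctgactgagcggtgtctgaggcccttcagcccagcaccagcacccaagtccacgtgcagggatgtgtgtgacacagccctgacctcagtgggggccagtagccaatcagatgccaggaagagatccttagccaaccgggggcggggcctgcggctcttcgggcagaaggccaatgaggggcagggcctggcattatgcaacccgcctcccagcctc
Per1 start site 2 (chr11:69099902-69100151, plus strand): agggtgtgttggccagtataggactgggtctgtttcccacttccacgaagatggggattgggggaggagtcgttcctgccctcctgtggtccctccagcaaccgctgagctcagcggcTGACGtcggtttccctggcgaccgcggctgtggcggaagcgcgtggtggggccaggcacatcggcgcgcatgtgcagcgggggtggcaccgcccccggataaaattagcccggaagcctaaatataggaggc

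TGACG on either strand occurred in 17.765% of 32851 mouse promoters of the same length. It was found 4 times in the Nr4a1 promoter, 40, 69, 213 and 233 bases before the start, always as CGTCA on the strand printed. The Fos promoter held it 2 times, 66 and 129 bases before the start, and the Junb promoter held it 1 time, 106 bases before the start. At Per1, start site 1 held it 246 bases before the start and start site 2 held it 132 bases before the start. The full palindrome TGACGTCA was in none of these 5 windows and in 1.546% of all promoters, and the AP-1 motif TGANTCA was in none of them and in 6.749% of all. The E-box CACGTG, to which the clock activators CLOCK and BMAL1 bind, occurred in 6.021% of all promoters and in these windows only at Per1 start site 1, 166 bases before the start. These are matches of letters and were not tested as binding sites.

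Depth was low throughout. ATAC-seq libraries held 3346418 to 8764791 tags, H3K4me3 libraries 745089 (C6AE) to 7103488 (Basal) and H3K27me3 libraries 633980 (6FAE) to 6392309 (C6AE). The highest ATAC-seq peak of a window, a broad peak without a listed summit, had a listed pileup of 2.73 to 9.23. The highest H3K4me3 peak, over the 6 treatments, rested on 10 to 67 tags. In the 2 libraries of 6FAE, 1027 and 13337 ATAC-seq peaks had a listed −log10 q of at least 1.3, so libraries of the same treatment differed in how many peaks stood out.

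An ATAC-seq peak covered the 5′ end of Fos and of Junb in 12 of the 12 libraries with and without Forskolin, of Nr4a1 in 11 and of Per1 in 11. The exception was the same library in both cases, C6AE replicate 2, which had the fewest tags and whose highest peaks ended 136 bp before the Nr4a1 start and 14 bp before the Per1 start. These counts used every listed peak, 191181 to 523278 per ATAC-seq library, and the share of all gene starts so covered was not counted. The highest peak of the Fos window had a listed −log10 q of at least 1.3 in 5 libraries with Forskolin and 6 without. For Junb these numbers were 3 and 0, for Nr4a1 4 and 5, and for Per1 6 and 5, each out of 6 libraries. Peaks covered 48.5% to 80.8% of the Fos window in libraries with Forskolin and 33.4% to 65.6% in those without, so the ranges overlapped. The H3K4me3 summits lay inside the genes, 222 to 628 bp from the start in Fos and 404 to 696 bp from the start in Nr4a1 over the 6 treatments. H3K4me3 covered the first bases of all 4 genes in every treatment except Nr4a1 in C6FAE, where the peak began 30 bp inside the gene.

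**Figure D1:**
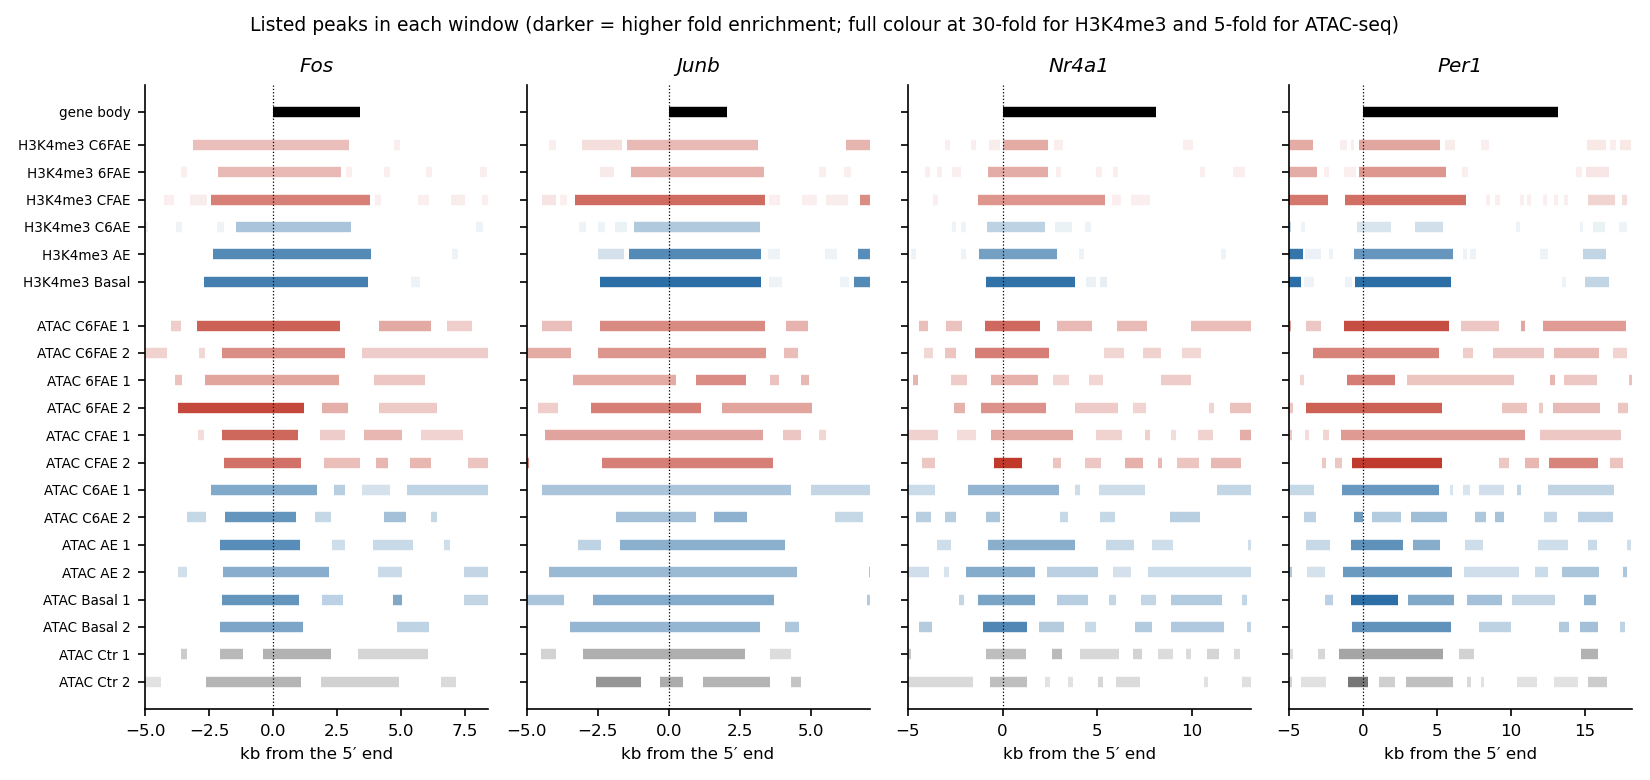
Peaks listed in each library (rows) against distance from the 5′ end in kb, for the 4 loci, with the gene body in black, libraries with Forskolin in red, those without in blue and Ctr in grey, and darker bars for higher fold enrichment over the background. Peaks sit over the dotted line of the 5′ end in nearly all libraries, and C6AE replicate 2 has short gaps there at Nr4a1 and Per1.

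Accessibility of the regions that covered the 4 gene starts did not separate the treatments with Forskolin from those without. These regions were 5776 to 19568 bp long, and a change confined to a start was not measured apart. The region that covered the 5′ end of Fos ran from 3722 bp before it to 2793 bp inside the gene. Its RPKM (reads scaled to region length and depth, merged by the authors over the 2 libraries) was 32.7 in C6FAE, 29.4 in 6FAE and 29.1 in CFAE, against 30.8 in C6AE, 27.2 in AE and 23.2 in Basal, with 26.6 in Ctr. C6FAE was the highest and Basal the lowest, but C6AE lay above 6FAE and CFAE, so the groups overlapped. Fos was in the upper part of all regions in every treatment, from percentile 87.9 in AE to percentile 99.1 in C6AE. In bulk chromatin, fewer open cells and less open DNA per cell cannot be told apart.

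The Junb region was 19568 bp long, longer than 99.97% of all regions, and reached from 14524 bp before the start to 5043 bp past it. On the side before the start Hook2 is the nearest neighbour in GRCm38, 10028 bp from Junb. The Junb region had an RPKM of 23.3 in C6FAE, 20.8 in 6FAE and 24.6 in CFAE, and of 18.4 in C6AE, 24.0 in AE and 21.4 in Basal, with 20.2 in Ctr. C6AE was the lowest and CFAE the highest, with AE among the values with Forskolin.

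Nr4a1 had the widest range of the 4 between treatments, and its groups with and without Forskolin overlapped. Its RPKM was 24.8 in C6FAE, 17.5 in 6FAE and 22.7 in CFAE, and 14.5 in C6AE, 29.0 in AE and 23.5 in Basal, with 18.8 in Ctr. The highest and the lowest value both belonged to treatments without Forskolin. C6FAE lay above C6AE, as did its median over all regions (17.7 against 12.2). The Per1 region at the 5′ end, 14782 bp long, had 29.0 in C6FAE, 23.9 in 6FAE and 28.8 in CFAE, and 21.9 in C6AE, 29.6 in AE and 28.1 in Basal, with 24.8 in Ctr. AE was again the highest and C6AE the lowest, and the Per1 region was at percentile 89.5 or above in all 7 treatments.

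The other 2 ATAC-seq regions belonged to the Per1 window. The upstream region, 8712 to 4898 bp before the start, lies on the side where Vamp2, a gene of vesicle fusion, is the nearest neighbour in GRCm38, and its RPKM ranged from 10.6 to 19.5 with Forskolin and from 13.2 to 22.0 without. The downstream region, 12169 to 17808 bp past the start, ranged from 12.9 to 16.5 with Forskolin and from 9.96 to 13.3 without. Of the 6 regions, 0 had all 3 values with Forskolin above all 3 without, and 0 had them all below. Over all regions, 15.5% had all 3 above and 2.24% all 3 below.

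**Figure D2:**
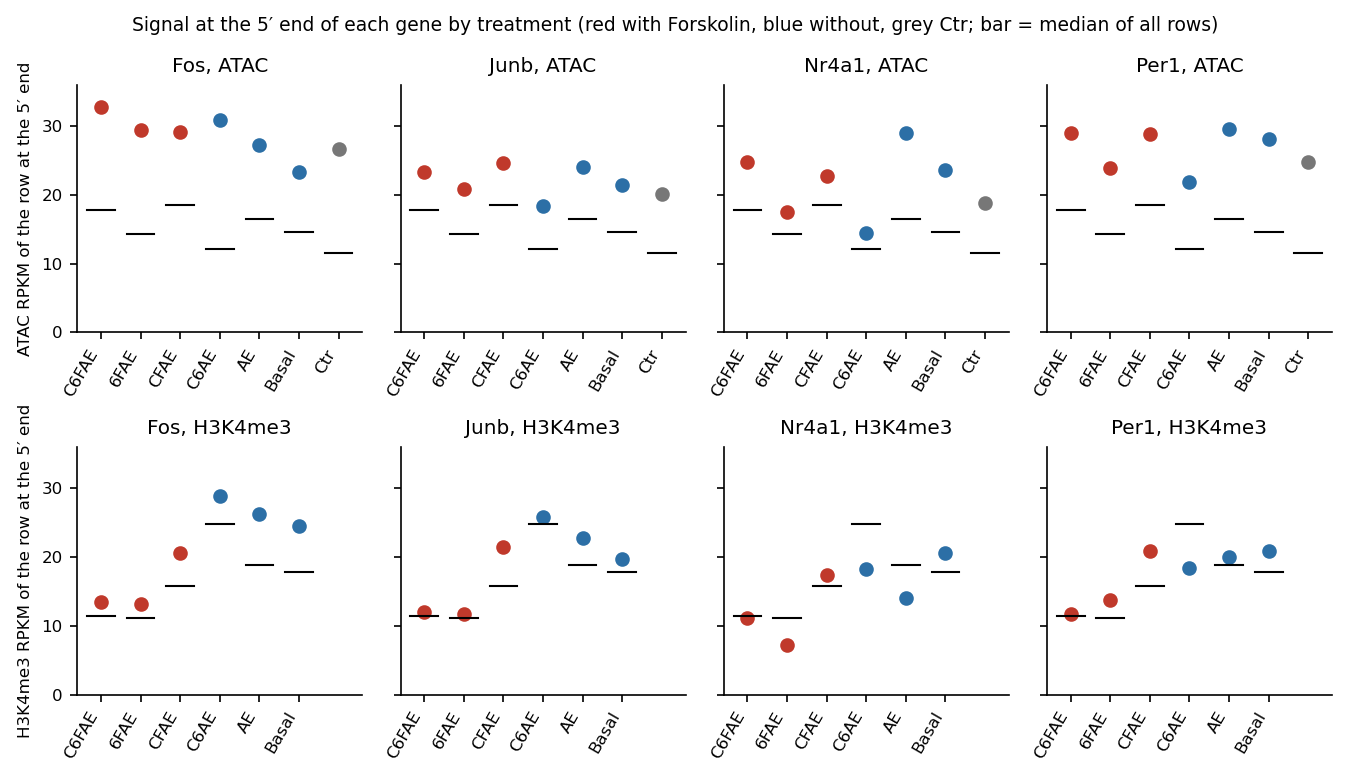
RPKM of the region at the 5′ end of each gene (columns of panels) by treatment, for ATAC-seq (top) and H3K4me3 (bottom), with Forskolin in red, without in blue, Ctr in grey and the median of all regions of that treatment as a bar. ATAC-seq values with and without Forskolin overlap in all 4 genes, while the H3K4me3 values of C6FAE and 6FAE, from 7.20 to 13.8, lie below every value without Forskolin, as do the medians of these treatments.

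The fit across all 36431 regions called 0 ATAC-seq differences (limma, Benjamini-Hochberg adjusted p under 0.05), so percent called was 0, and 4729 regions had an unadjusted p under 0.05. The units of this fit were the treatments, which also differed in other chemicals, so its p set Forskolin against that spread. On the log2(RPKM + 1) scale Fos was 0.17 higher with Forskolin (95% interval −0.29 to 0.62, limma adjusted p = 0.782), and Junb was 0.11 higher (−0.41 to 0.63, limma adjusted p = 0.886). Nr4a1 differed by −0.0022 (−0.58 to 0.58, limma adjusted p = 0.998) and Per1 by 0.043 (−0.43 to 0.52, limma adjusted p = 0.951). The median difference over all regions was 0.21, so all 4 gene starts lay below it, between percentile 28.5 (Nr4a1) and percentile 45.4 (Fos) of all differences. Once each treatment was centred on the median of its regions, the 4 differences were −0.05, −0.11, −0.22 and −0.17 in the same order, with limma adjusted p between 0.639 and 0.946, so the sign of Fos, Junb and Per1 depended on the scaling. The Per1 regions upstream and downstream differed by −0.21 and 0.33 (limma adjusted p = 0.819 and 0.721). At the 4 gene starts the intervals reached −0.58 and 0.63.

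The peak lists kept the 2 libraries of a treatment apart, and at Fos the widest gap lay within a treatment. The highest fold enrichment over background on the Fos region was 4.19 and 3.28 in C6FAE, 2.82 and 4.71 in 6FAE, and 4.06 and 3.86 in CFAE. Without Forskolin it was 3.38 and 3.94 in C6AE, 4.15 and 3.22 in AE, and 3.94 and 3.48 in Basal, and in Ctr it was 3.26 and 3.16. The lowest and the highest value came from the same treatment, 6FAE.

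On the Nr4a1 region the fold was 4.05 and 3.61 in C6FAE, 2.57 and 3.19 in 6FAE, and 2.73 and 5.29 in CFAE. Without Forskolin it was 3.04 and 2.58 in C6AE, 3.22 and 3.29 in AE, and 3.53 and 4.32 in Basal, and in Ctr it was 3.00 and 2.89. Both C6FAE libraries lay above both C6AE libraries, and CFAE held the widest gap between its own libraries. The share of all regions with that order of C6FAE and C6AE was not counted. The Nr4a1 difference between them was at percentile 63.8 of all regions, and C6AE replicate 2, at 2.58, had the fewest tags. The 2 broad CFAE peaks differed in length, with 4343 bp at a fold of 2.73 and 1508 bp at 5.29. At Fos the longer of the C6FAE peaks, 5584 against 4808 bp, had the higher fold. The part of peak length in the folds was not tested. Over the 6 libraries with Forskolin and the 6 without, the fold on the Junb region ran from 2.86 to 4.14 and from 2.91 to 3.42, and that on the Per1 region from 3.04 to 4.97 and from 3.64 to 5.41. Some of the Junb values, with the highest among them, came from peaks of the long region outside the Junb window. Inside the window the highest fold ran from 2.86 to 3.57 with Forskolin and from 2.59 to 3.32 without. The fits used the whole region.

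In the limma fit over the 14 libraries, log2 of that fold differed with Forskolin by 0.04 at Fos (95% interval −0.35 to 0.42, limma adjusted p = 0.957), 0.11 at Junb (−0.25 to 0.47, limma adjusted p = 0.843), 0.076 at Nr4a1 (−0.33 to 0.48, limma adjusted p = 0.915) and −0.057 at Per1 (−0.47 to 0.35, limma adjusted p = 0.941). The median over all regions was 0.13, percent called was 0, and 3699 regions had an unadjusted p under 0.05. C6FAE minus C6AE gave 0.022 at Fos, 0.14 at Junb, 0.45 at Nr4a1 and 0.096 at Per1, beside a median of 0.30 over all regions. For Nr4a1 the mean of log2 fold was 1.94 ± 0.12 in C6FAE and 1.49 ± 0.16 in C6AE (SD, n = 2), and the difference had a 95% interval of −0.25 to 1.15 with a limma adjusted p of 0.592. Percent called was again 0, with 3535 regions at an unadjusted p under 0.05.

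**Figure D3:**
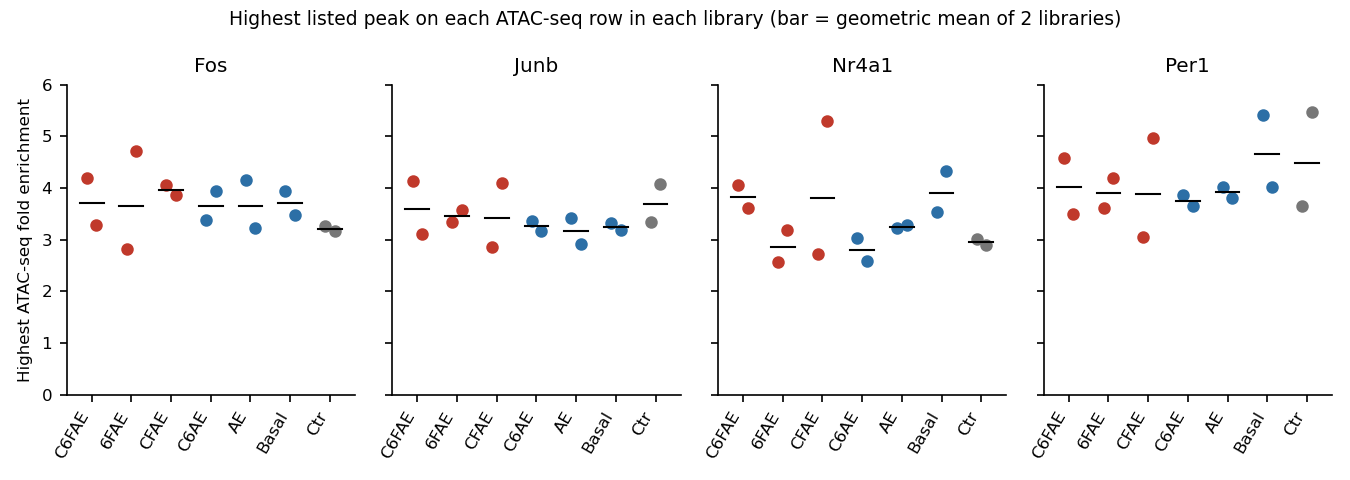
Highest ATAC-seq fold enrichment listed on the region at the 5′ end of each gene, 1 point per library and 2 per treatment, with the geometric mean as a bar and Forskolin treatments in red. The widest gap within a treatment is that of CFAE at Nr4a1 (2.73 against 5.29), and the groups overlap in all 4 panels. Some of the Junb points are peaks of the long region outside the Junb window.

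Mean H3K4me3 at the 4 gene starts was lower with Forskolin, as was the median of the whole table. Of the 4 only Fos passed the test, which called 46.9% of all regions lower with Forskolin. The Fos region, from 3130 bp before the start to 3833 bp past it, had an RPKM of 13.5 in C6FAE, 13.2 in 6FAE and 20.5 in CFAE, against 28.9 in C6AE, 26.2 in AE and 24.5 in Basal. The groups did not overlap, an order shared by 65.4% of all regions, and CFAE was the nearest to the treatments without Forskolin. The Junb region had 11.9, 11.7 and 21.4 in C6FAE, 6FAE and CFAE, and 25.8, 22.7 and 19.7 in C6AE, AE and Basal, so CFAE lay above Basal. The Nr4a1 region had 11.1, 7.20 and 17.3 with Forskolin, in the same order of treatments, and 18.2, 14.03 and 20.5 without, so CFAE lay above AE. The Per1 region at the start had 11.7, 13.8 and 20.8 with Forskolin and 18.4, 20.0 and 20.9 without, with CFAE just below Basal.

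The median region of the table moved the same way. It was at 11.4, 11.1 and 15.7 RPKM in C6FAE, 6FAE and CFAE and at 24.8, 18.8 and 17.8 in C6AE, AE and Basal. Beside the other regions of the same library, Fos was at percentile 71.4 in C6FAE and 69.0 in C6AE, and at percentile 72.1, 86.3, 91.1 and 91.1 in 6FAE, CFAE, AE and Basal. Nr4a1 ranged from percentile 13.2 in 6FAE to 72.3 in Basal. C6AE, with the highest median, was also the library with the fewest tags.

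Of the 6 H3K4me3 regions, 2 passed the test (limma, Benjamini-Hochberg adjusted p under 0.05), both lower with Forskolin, while percent called over the table was 46.9, made of 5889 lower regions (46.9%) and 2 higher ones (0.0159%). Those 2 were also the 2 of 6 in which all 3 values with Forskolin lay below the 3 without, against 65.4% of all regions with this order and 0.00796% with the opposite order. Fos was lower by a log2(RPKM + 1) difference of −0.74 (95% interval −1.23 to −0.25, limma adjusted p = 0.0262). The Per1 region upstream of the start, from 8346 to 2329 bp before it and on the side of Vamp2, had a difference of −0.60 (−1.09 to −0.11, limma adjusted p = 0.0438). Junb at the start had −0.61 (−1.14 to −0.079, limma adjusted p = 0.0524), Nr4a1 −0.59 (−1.21 to 0.031, limma adjusted p = 0.0894) and Per1 at the start −0.37 (−0.90 to 0.16, limma adjusted p = 0.185). The region 6501 to 13869 bp past the Junb start, on the side of Prdx2 and Rnaseh2a in GRCm38, had −0.48 (limma adjusted p = 0.0949).

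The median difference of all H3K4me3 regions was −0.65, and relative to it the 6 regions differed by −0.098 (Fos) to 0.27 (Per1 at the start). With each treatment centred on its median the fit called 0 of 12566 regions (990 at an unadjusted p under 0.05), against 5891 as deposited, and the sign of all member regions but Fos turned positive. Centred, Fos differed by −0.10 (95% interval −0.35 to 0.15, limma adjusted p = 0.842) and Per1 at the start by 0.27 (−0.13 to 0.67, limma adjusted p = 0.718), the latter at percentile 89.8 of all differences. The Fos call was lost without C6FAE, 6FAE or AE (limma adjusted p = 0.141, 0.127 and 0.0744), while its difference stayed at −0.65, −0.64 and −0.75. That of the upstream Per1 region was lost without C6FAE, 6FAE, C6AE, AE or Basal (limma adjusted p = 0.176, 0.184, 0.0663, 0.138 and 0.0705), with differences of −0.50, −0.51, −0.59, −0.57 and −0.65. Without CFAE the other 4 regions passed, at limma adjusted p from 0.0167 to 0.0257. The part of depth and of signal over background in these differences was not tested.

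**Figure D4:**
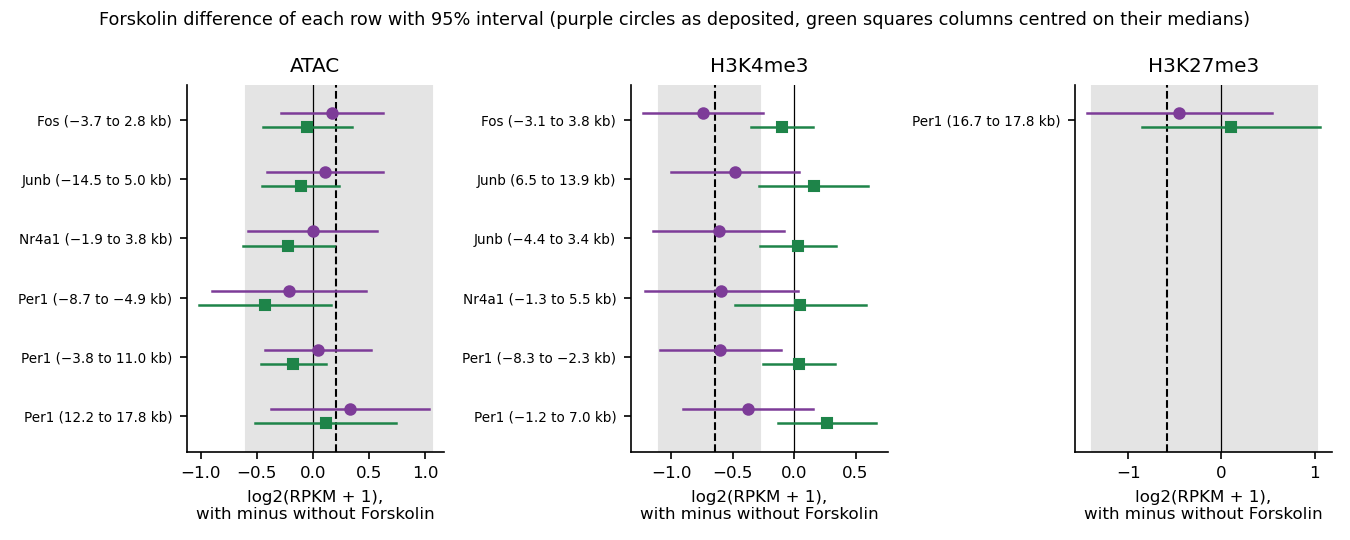
Difference of log2(RPKM + 1) with minus without Forskolin for each region of the 4 loci, with its 95% limma interval, as deposited (purple circles) and with each treatment centred on its median (green squares). The grey band holds percentiles 5 to 95 of all regions of that table as deposited and the dashed line their median, which is 0.21 for ATAC-seq, −0.65 for H3K4me3 and −0.58 for H3K27me3, and every purple circle lies inside its band.

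The highest H3K4me3 peak of each window was at percentile 96.8 or above of the peaks listed in its library, in all 6 treatments. That peak was not over the start in every case. By RPKM the regions at the start went as low as percentile 13.2 of all regions for Nr4a1 (6FAE) and 20.25 for Per1 (C6AE). Fold enrichment was over a background common to the whole library, since no local one was modelled. On the Fos region the highest fold was 10.5 in C6FAE, 11.1 in 6FAE and 19.6 in CFAE, and 12.8 in C6AE, 24.5 in AE and 26.7 in Basal. C6AE fell among the treatments with Forskolin here, although its RPKM was the highest of the 6. On the Junb region the fold was 11.2, 12.4 and 22.6 with Forskolin and 11.8, 24.5 and 33.5 without, and on the Nr4a1 region it was 13.2, 13.0 and 16.5 with Forskolin and 10.0, 20.1 and 29.3 without. C6AE was the lowest of the 6 at Nr4a1, and Basal was the highest at all 3 of these genes. RPKM and fold enrichment thus ordered C6AE differently at Fos, Junb and Nr4a1. The libraries differed in depth: C6AE had 745089 tags and Basal 7103488. Pileups of the highest peaks at Fos, Junb and Nr4a1 were 13, 12 and 10 in C6AE and 50, 63 and 55 in Basal. The part of depth in these folds was not tested, so they do not by themselves show more or less of the mark.

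In the Per1 window the place of the highest H3K4me3 peak differed between the treatments with and without Forskolin, by a narrow margin in C6FAE and CFAE. It lay over the Per1 start, with its summit 479 to 608 bp inside the gene, in C6FAE, 6FAE and CFAE. In C6AE, AE and Basal it was the upstream peak, with its summit 6043 to 6409 bp before the start. These summits were outside the 5 kb window, and in GRCm38 Vamp2 lies on that side, 2727 bp from Per1. Whether the upstream peak belongs to Vamp2 or to Per1 was not tested. The highest fold on the region at the start was 13.9, 16.3 and 22.0 in C6FAE, 6FAE and CFAE, and that on the upstream region was 13.2, 13.0 and 20.8. Without Forskolin they were 7.29, 22.0 and 30.9 on the region at the start and 10.0, 28.9 and 35.6 upstream, in C6AE, AE and Basal. The ratio of the region at the start to the upstream region was thus 1.05 to 1.25 with Forskolin and 0.727 to 0.868 without. How many other pairs of regions separate in this way was not counted. The highest peaks had pileups of 19, 24 and 35 in C6FAE, 6FAE and CFAE, and of 10, 45 and 67 in C6AE, AE and Basal. In C6AE the highest peak of the region at the start lay 3553 to 5385 bp inside the gene, and with the peak over the start itself, at 6.38, the ratio of that library was 0.636. This ratio was picked after its values were seen, has 1 library per treatment and no test, and for Junb the ratio of the region at the start to that downstream overlapped between the groups (0.731 to 1.28 and 1.03 to 1.36). The same ratio taken from RPKM at Per1 overlapped too, with 0.862 in C6FAE, 1.00 in 6FAE and 1.01 in CFAE and with 0.741 in C6AE, 0.785 in AE and 0.914 in Basal.

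**Figure D5:**
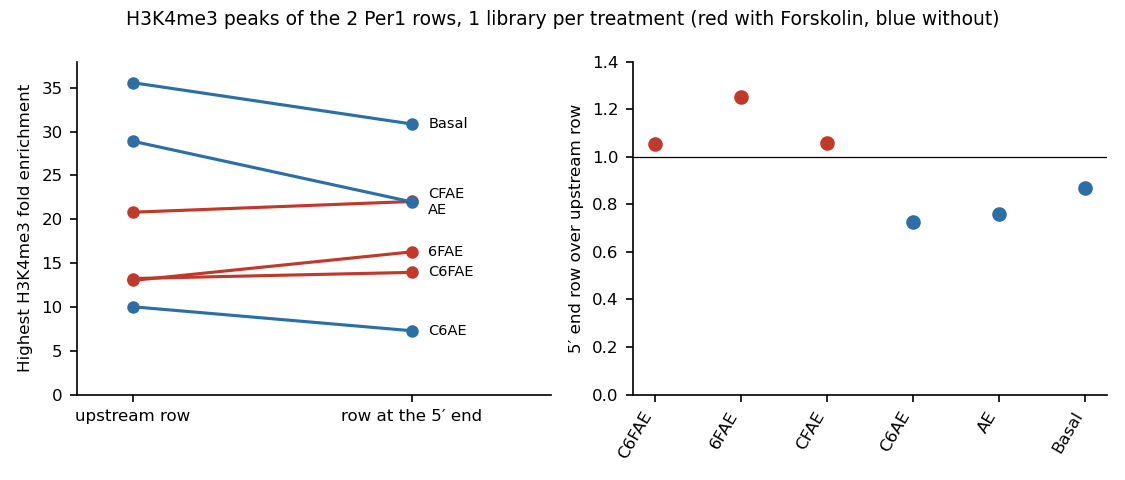
Highest H3K4me3 fold enrichment on the upstream region and on the region at the 5′ end of Per1 in each library (left), and the ratio of the second to the first by treatment (right), with Forskolin treatments in red and the others in blue. Red lines rise or stay nearly level towards the 5′ end and blue lines fall, with ratios of 1.05 to 1.25 against 0.727 to 0.868. The upstream region lies on the side of Vamp2, and the ratio was picked after its values were seen, with 1 library per treatment.

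In the 6 treatments, none of the H3K27me3 peaks listed in the windows of the 4 loci had a −log10 q of at least 1.3, and none covered the start of any of the 4 genes. The highest fold of a window was 1.72 to 2.28 with Forskolin and 2.03 to 3.08 without, and no peak was listed at Fos in 1 of the 6 treatments, at Nr4a1 in 2 and at Junb in 3. The only region of the table was in the Per1 window, from 16696 to 17846 bp past the start, where tRNA genes are the nearest neighbours in GRCm38. Its RPKM was 1.81 in C6FAE, 4.10 in 6FAE and 3.36 in CFAE, and 2.20 in C6AE, 3.87 in AE and 9.27 in Basal. Basal was the highest, at percentile 94.5 of all regions of its library, and its peak there, with a fold enrichment of 3.08 and a −log10 q of 1.29, was at percentile 96.1 of that library's peaks. The groups overlapped.

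With Forskolin the difference at this Per1 region was −0.45 (95% interval −1.45 to 0.54, limma adjusted p = 0.48), beside a median of −0.58 over all regions. Percent called was 0, with 5677 regions at an unadjusted p under 0.05, and 37% of all regions had all 3 values with Forskolin below the 3 without, and 1.95% had them above. Without Basal the difference was 0.0074 (limma adjusted p = 0.993).

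The accessibility patterns of the 4 gene starts were compared by the Euclidean distance of log2(RPKM + 1) over the 7 treatments. Junb and Nr4a1 were the nearest pair at 0.524, Fos and Per1 followed at 0.654, and Fos and Nr4a1 were the farthest at 1.45. The nearest regions elsewhere were closer to each member than the members were to each other. With 36431 regions to choose from this was to be foreseen, and it says nothing about how alike the 4 loci are. The nearest to Fos were chr19:3387645-3390461 and chr13:120275946-120284312, both at 0.316. Those nearest to Junb were chr5:114817689-114831974 and chr10:128140311-128143200, at 0.109 and 0.124. For Nr4a1 they were chr15:76500966-76503021 and chr7:132847245-132853583, at 0.208 and 0.222, and for Per1 chr6:48550674-48553127 and chr6:124879935-124884488, at 0.166 and 0.182. All positions are in mm9 as deposited.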

How the data were processed

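The authors sequenced ATAC-seq libraries and ChIP-seq libraries of H3K4me3 and H3K27me3 with inputs. The submitters' processing notes name Bowtie2, MACS2, deepTools 3.1.0 and mm9, in no stated order. Per the file headers, MACS 2.1.2 called the peaks of every library separately, keeping those with p-value up to 0.05 and modelling no local background. Tags were 150 bp and were lengthened to 250 bp, broad peaks were called for ATAC-seq and H3K27me3 and narrow ones for H3K4me3, and ChIP-seq was set against input. The deposited lists give fold enrichment, the signal as pileup, −log10 p and −log10 q. The headers say that q was not calculated, yet values are listed, so counts at −log10 q of at least 1.3 rest on that column. The authors' tables hold RPKM, made with bamCoverage in bins and averaged over regions, with ATAC-seq libraries merged per treatment. How the regions were chosen is not stated in the sources used here.

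Members and motifs were chosen with earlier results of these data known. The 4 loci stand as named, and the region at a 5′ end is the one that covers it. Regions of all 3 tables were tested on log2(RPKM + 1) with limma 3.58.1 (trend, R 4.3.3), 3 treatments with Forskolin against 3 without, and called at a Benjamini-Hochberg adjusted p under 0.05. A fold change on this scale understates that of low values. For the peak lists, log2 of the highest fold of any peak overlapping a region by at least 1 bp (0 with none) was fitted over 14 libraries. In simulated data, the fits of the 3 tables and of C6FAE against C6AE each found 0 of 200 changes of 2-fold, and the Forskolin peak fit found 66. Of 200 changes of 4-fold, the tables gave 86 (ATAC-seq), 161 (H3K4me3) and 54 (H3K27me3). The Forskolin peak fit gave 178 of these and C6FAE against C6AE 99. A count of 0 calls thus does not exclude changes of 2-fold. The numbers of the libraries paired none of the samples: 15 correlations of same-numbered libraries ran from −0.15 to 0.054. For each member, the 2 most similar ATAC-seq regions were found by Euclidean distance. Alternatives changed the pseudocount, scaling, filter, trend, peak threshold, overlap, window, libraries and treatments used. Tags without molecular identifiers are not independent molecules. A list of further genes of the pathway was not analysed here, since no mm9 annotation was used. Python 3.11.15, numpy 2.4.6, pandas 2.3.3 and matplotlib 3.10.9 were used. In all, 3 samples with conflicting labels entered no comparison.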

Additional observations from a re-analysis of the deposited data

Results flagged for a closer look

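Of the 12 groups of 6 ATAC-seq libraries tested with Dixon's rule (6 regions, with and without Forskolin), 1 held a library far from the others, and chance flags about 1 in 20. It was Basal replicate 1 at the Per1 start, whose highest peak had a fold enrichment of 5.41, the highest of the 6 libraries without Forskolin, with a gap of 0.75 of the range of log2 fold against a critical value of 0.625. Without this library the Forskolin difference in log2 fold at Per1 was 0.014 in place of −0.057.

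The H3K4me3 library titled as a control but labelled C6FAE entered no comparison. It had listed peaks over the 5′ ends of all 4 genes, with a fold enrichment of 36.8 at Fos, 41.0 at Junb, 29.0 at Nr4a1 and 24.1 at Per1. It was flagged as a signal in data outside the comparisons. In the Per1 window its highest peak was the upstream one, at 33.3.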

How the results depend on the processing

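Over the alternatives, 25 differences at the 4 loci (13 from the tables, 12 from the peak lists) gave 318 values, of which 249 kept the sign and the side of the threshold, 13 lost a call, 5 gained one, 49 changed sign and 2 became 0. The cause was not tested. All differences are log2, with minus without Forskolin.

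For the ATAC-seq table, where 0 regions were called, a pseudocount of 10 gave 130 and leaving out the lower quartile gave 2, while leaving out a treatment gave 0 to 889 (889 without C6AE). With median centring, Fos became −0.050, Junb −0.11 and Per1 −0.17. With quantile normalization Junb became −0.057 and Per1 −0.11. Nr4a1 became 0.043 with Ctr added, and leaving out a treatment gave −0.27 to 0.20 at Nr4a1 and −0.08 to 0.13 at Per1.

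For H3K4me3, the 5891 calls became 0 with median centring (990 at an unadjusted p under 0.05) and with quantile normalization (977), 2382 without the trend, and 0 to 9162 when a treatment was left out: 0 without C6FAE, 284 without 6FAE, 1408 without AE, 1915 without C6AE and 9162 without CFAE. With median centring and quantile normalization, Junb at the start became 0.030 and 0.030, its downstream region 0.16 and 0.13, Nr4a1 0.051 and 0.081, the upstream Per1 region 0.040 and 0.027, and Per1 at the start 0.27 and 0.24. Fos lost its call without the trend (limma adjusted p = 0.0524) and the upstream Per1 region with a pseudocount of 10 (limma adjusted p = 0.0524) or without the trend (0.068). Leaving out the lower quartile brought Junb at the start under the threshold (0.0325).

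For H3K27me3, the 0 calls became 7 with median centring and 27 with quantile normalization, and 0 to 4487 when a treatment was left out (4487 without 6FAE, the library with the fewest tags). The Per1 region became 0.10 and 0.010 under these scalings, and leaving out a treatment gave −0.83 to 0.0074.

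For the ATAC-seq peak lists, where 0 regions were called, peaks of −log10 q of at least 1.3 gave 361 calls for Forskolin and 166 for C6FAE against C6AE, and the 20000 peaks of highest −log10 p gave 844 and 338. Leaving out a library gave 0 to 127 for Forskolin (91 without 6FAE replicate 1, 127 without C6AE replicate 1) and 0 for C6FAE against C6AE. For Forskolin, the q threshold gave −0.21 at Fos, −0.16 at Nr4a1, 0.25 at Per1 and 0 at its upstream region, where no peak was left, and the 20000 peaks gave 0.22 at that region. Quantile normalization gave −0.11 at Fos, −0.0060 at Junb and −0.046 at Nr4a1. For C6FAE against C6AE, it gave −0.35 at Fos, −0.20 at Junb and −0.27 at Per1, and the q threshold gave 0 at the upstream Per1 region. Leaving out a library gave, for Forskolin, −0.085 to 0.16 at Fos, −0.083 to 0.23 at Nr4a1, −0.18 to 0.061 at Per1, −0.081 to 0.037 at its upstream and −0.030 to 0.21 at its downstream region. For C6FAE against C6AE it gave −0.16 to 0.20 at Fos, −0.067 to 0.34 at Junb and −0.098 to 0.29 at Per1.

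The replicate block changed no call: it gave 0 calls in both peak contrasts, with 3536 and 3243 regions at an unadjusted p under 0.05. The numbers did not pair the samples (15 correlations from −0.15 to 0.054, none over 0.1). Windows of 1 and 10 kb held 5 and 11 ATAC-seq regions, 4 and 10 H3K4me3 regions and 0 and 1 H3K27me3 region. The listed pileups of at most 9.23 limit the ATAC-seq values at these loci.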
